A study of Mus musculus with 6 samples.

Results

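The regions described here lie nearest to genes of the solute carrier (Slc) families that move neurotransmitters, amino acids and chloride across membranes: Slc1, Slc6, Slc7, Slc12, Slc17, Slc18, Slc32, Slc36 and Slc38. A region was taken when the deposited annotation assigned it, by nearest start site of transcription, to a gene symbol of these families. Of 41591 regions in all lists, 152 met this rule: 72 BIBR1532 regions, 60 vehicle regions and 20 common regions. They named 57 of the 81 protein-coding genes of these families in the RefSeq gene table, and all 57 symbols were found there. The symbol rule also took Slc7a6os, the gene beside Slc7a6 on the opposite strand, whose protein is not a transporter. The other 56 named genes were transporter genes, and 24 of the 80 transporter genes had no region in any list.

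TERT, the catalytic subunit of telomerase, was mapped by CUT&Tag, in which an antibody guides a transposase to cut the DNA near the bound protein. The neurons were primary cultures of cortex and hippocampus taken from C57BL/6 mouse embryos at embryonic days 15 to 18. The BIBR1532 group was 3 samples given 2 µM BIBR1532, a synthetic inhibitor of telomerase, during 24 h, and the vehicle group was 3 samples given DMSO over the same 24 h, which another label field calls untreated. The deposited lists join the 3 samples of each group, so each condition is a single pooled measurement: no region has a replicate value, sequencing depth cannot be read from the lists, and differences between the pools could not be tested across samples.

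A BIBR1532 region is a region with higher signal in the BIBR1532 pool, a vehicle region has higher signal in the vehicle pool, and a common region passed in neither direction. The first 2 kinds are called condition-specific. Which pool is which was read from the order of names in the lists and is likely, not stated. The score of a region is the authors' own value. It ran from 1.05 to 27.2 among BIBR1532 regions, from 1.06 to 25.9 among vehicle regions and from 0.00191 to 0.913 among common regions, so a common region has a small difference between the pools. No library without the TERT antibody is among the samples, so signal of TERT and signal of open chromatin cannot be told apart.

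In brain, neurons and glia clear glutamate, GABA, glycine and monoamines from the synapse with plasma membrane carriers of the Slc1 and Slc6 families, and vesicular carriers of the Slc17, Slc18 and Slc32 families load transmitter into synaptic vesicles. The chloride importer NKCC1 (Slc12a2) and the chloride exporter KCC2 (Slc12a5) set the chloride gradient on which inhibition by GABA depends. Carriers of the Slc7, Slc36 and Slc38 families supply amino acids for protein synthesis, glutathione and transmitter pools, and several of their genes are induced by amino acid shortage through the transcription factor ATF4.

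The promoters under regions of each list are shown first, because the promoter is where the members' shared and condition-specific signal can be set beside the gene itself. RefSeq promoter windows on GRCm38.p6, the assembly of mm10, run from 250 bases before to 50 bases after a start site. Such windows were matched by symbol for 62 of the 84 symbols that fit the rule, 3 of which are non-coding genes, and 10 of 89 windows, from 9 genes, overlapped a member region. In the 6 windows below, written 5′ to 3′ on the gene's strand, capitals mark the bases under a deposited region. Slc7a1 (chr5:148399855-148400154, minus) lies under a BIBR1532 region. Slc17a5 (chr9:78587996-78588295, minus) and Slc7a6 (chr8:106168671-106168970, plus) lie under vehicle regions. Slc1a4 (chr11:20332664-20332963, minus strand), Slc38a2 (chr15:96699679-96699978, minus) and Slc38a10 (chr11:120151302-120151601, minus) lie under common regions.
Slc7a1: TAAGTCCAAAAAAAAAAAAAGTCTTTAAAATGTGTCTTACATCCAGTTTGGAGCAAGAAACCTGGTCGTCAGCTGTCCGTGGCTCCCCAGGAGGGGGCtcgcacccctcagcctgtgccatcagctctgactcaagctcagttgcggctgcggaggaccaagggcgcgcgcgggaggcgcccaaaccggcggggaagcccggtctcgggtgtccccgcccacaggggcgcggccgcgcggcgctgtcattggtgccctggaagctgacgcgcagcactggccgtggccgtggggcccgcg
Slc17a5: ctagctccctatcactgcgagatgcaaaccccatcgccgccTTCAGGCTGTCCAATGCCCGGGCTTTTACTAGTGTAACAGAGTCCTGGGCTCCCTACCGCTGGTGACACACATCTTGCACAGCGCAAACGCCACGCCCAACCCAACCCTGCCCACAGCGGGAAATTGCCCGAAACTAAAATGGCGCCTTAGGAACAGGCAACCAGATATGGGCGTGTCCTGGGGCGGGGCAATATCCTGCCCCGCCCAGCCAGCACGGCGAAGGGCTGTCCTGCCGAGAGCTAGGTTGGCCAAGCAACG
Slc7a6: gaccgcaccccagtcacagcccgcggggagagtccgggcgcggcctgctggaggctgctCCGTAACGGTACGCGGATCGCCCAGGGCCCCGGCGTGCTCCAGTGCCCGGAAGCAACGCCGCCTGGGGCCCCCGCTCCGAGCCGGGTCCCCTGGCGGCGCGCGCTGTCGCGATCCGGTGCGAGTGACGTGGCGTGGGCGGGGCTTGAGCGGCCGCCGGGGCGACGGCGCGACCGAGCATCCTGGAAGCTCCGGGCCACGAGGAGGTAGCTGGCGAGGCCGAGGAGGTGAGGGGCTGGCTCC
Slc1a4: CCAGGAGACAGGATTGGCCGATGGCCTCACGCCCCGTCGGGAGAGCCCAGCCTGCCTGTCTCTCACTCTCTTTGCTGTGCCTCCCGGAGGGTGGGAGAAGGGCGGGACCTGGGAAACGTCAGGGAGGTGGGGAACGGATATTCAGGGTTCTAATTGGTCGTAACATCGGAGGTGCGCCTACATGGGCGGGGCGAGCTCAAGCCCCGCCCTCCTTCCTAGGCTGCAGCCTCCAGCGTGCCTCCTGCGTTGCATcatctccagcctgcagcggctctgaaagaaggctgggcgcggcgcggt
Slc38a2: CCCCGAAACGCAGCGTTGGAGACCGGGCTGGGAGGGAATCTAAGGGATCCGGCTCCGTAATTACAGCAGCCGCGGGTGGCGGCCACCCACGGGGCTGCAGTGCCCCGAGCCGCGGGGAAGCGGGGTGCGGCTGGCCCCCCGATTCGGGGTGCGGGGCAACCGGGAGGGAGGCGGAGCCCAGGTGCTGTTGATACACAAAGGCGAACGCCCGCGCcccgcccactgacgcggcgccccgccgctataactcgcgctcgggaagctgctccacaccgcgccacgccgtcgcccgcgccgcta
Slc38a10: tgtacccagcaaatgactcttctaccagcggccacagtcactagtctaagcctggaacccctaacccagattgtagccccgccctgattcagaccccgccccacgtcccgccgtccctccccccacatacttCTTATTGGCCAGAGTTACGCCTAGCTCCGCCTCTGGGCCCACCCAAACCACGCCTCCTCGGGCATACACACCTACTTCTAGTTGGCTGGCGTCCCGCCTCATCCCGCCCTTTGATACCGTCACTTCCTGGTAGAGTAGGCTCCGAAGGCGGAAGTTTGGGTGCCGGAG

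These windows were rich in G and C. The median over the 10 windows under a region was 64.0% G or C and 20 CG dinucleotides, against 56.3% and 8 over all 89 member windows and 52.7% and 7 over the 32851 windows of the table. Every motif was searched on both strands of the whole window, not only in the bases under a region. The GC box GGGCGG stood in 9 of the 10 windows under a region, in 46 of 89 member windows (51.7%) and in 35.7% of all windows. At Slc7a1, Slc38a2, Slc12a9 and Slc38a9 it lay outside the bases under the region. Among the 10 are both overlapping windows of Slc7a6. The TATA box TATAAA stood in 0 of the 10, in 5 of 89 (5.62%) and in 13.6% of all. The core TGATGNAA of the amino acid response element, which ATF4 binds, stood in 1 of the 10, that of Slc1a4, in 6 of 89 (6.74%) and in 3.97% of all windows. The E-box CACGTG stood in 2 of the 10, Slc12a9 and Slc36a1, in 13 of 89 member windows (14.6%) and in 7.15% of all, and the sequence CCAAT in 5, in 22 of 89 (24.7%) and in 37.4%. The telomere repeat unit TTAGGG stood in 1 of the 10, Slc38a10, in 10 of 89 (11.2%) and in 10.6% of all. In Slc38a10 it lay outside the bases under the region, as did the E-box matches of Slc36a1. The response element core of Slc1a4 ran across the edge of the region. A match gives the letters only and was not tested as a binding site. These values were not computed for windows of other genes under a region. The contrasts are therefore not read as a trait of the members.

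The common regions answer where signal shared by both pools lay. Of the members' common regions, 7 of 20 (35%, exact 95% interval 15.4 to 59.2) were of the promoter class, against 51.8% of all 6827 common regions and 44 of 87 (50.6%) nearest to other Slc genes. The members' interval includes the share over all common regions. Intervals here and below are Clopper-Pearson intervals and cover counting error only. Counted over genes, 7 of 81 (8.64%, interval 3.55 to 17) had a common promoter region, against 14.2% of all 21900 protein-coding genes, and 17 of 81 were named by any common region, against 23.9%.

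Of the 7 genes with a common promoter region 5 encode amino acid carriers or their relatives, as most genes of these families do, so the count says nothing particular of them. Slc38a1 and Slc38a2, neighbours on chromosome 15, encode neutral amino acid carriers that take up glutamine. Their common promoter regions were centred 374 and 166 bp before the start sites assigned to them. That of Slc38a1 lay inside the gene's span, before an internal start site. Slc38a10 had a common region 412 bp wide that spanned its start site, and Slc1a4, the carrier of serine and alanine ASCT1, had the widest common region of the set, 661 bp at 20332712 to 20333372 on chromosome 11. Slc7a5, which encodes LAT1, the carrier of large neutral amino acids, had a promoter region centred 203 bp after the start site and another, in a CpG island of intron 1, at 870 bp. Only 1 of the 7, Slc1a4, had a common promoter region of at least 500 bp.

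The remaining pair were chloride genes. Slc12a2 (NKCC1) had a common promoter region of 140 bp centred 398 bp before its start site, at 57878211 to 57878350 on chromosome 18. Slc12a9, whose protein is known to interact with other cotransporters of the family, had one of 351 bp. It was centred 240 bp before the start site assigned to it and lay inside the gene's span. Slc12a5 (KCC2), the gene of the neuronal chloride exporter, had no common region.

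A further 2 genes had a common region at the start site that the annotation placed in another class. Slc38a9, which encodes a lysosomal arginine sensor, had one in intron 1, centred 115 bp after the start site. Slc36a1, which encodes a lysosomal proton-coupled amino acid carrier, had one in the 5' UTR at 111 bp. Counting every region centred within 1 kb of its start site, 9 of 81 genes (11.1%) had a common region, against 19.2% of all protein-coding genes.

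No neurotransmitter carrier had a common promoter region, against 14.2% of all protein-coding genes. These were the carriers of glutamate (5 genes), of GABA (4), of monoamines and glycine (5) and of vesicle filling (8). With so few genes, the absence is not read as a trait of these carriers. The common region nearest to Slc17a7, the gene of the vesicular glutamate carrier VGLUT1, lay in a CpG island 1712 bp before the start site, and that of the creatine carrier gene Slc6a8 lay 1539 bp before it. Common regions of Slc1a2 and of Slc6a17, which encodes a vesicular amino acid carrier, lay in introns or an exon, between 5066 and 23864 bp from the start site assigned to them. Common scores of members reached 0.368, at Slc38a2.

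**Figure D1:**
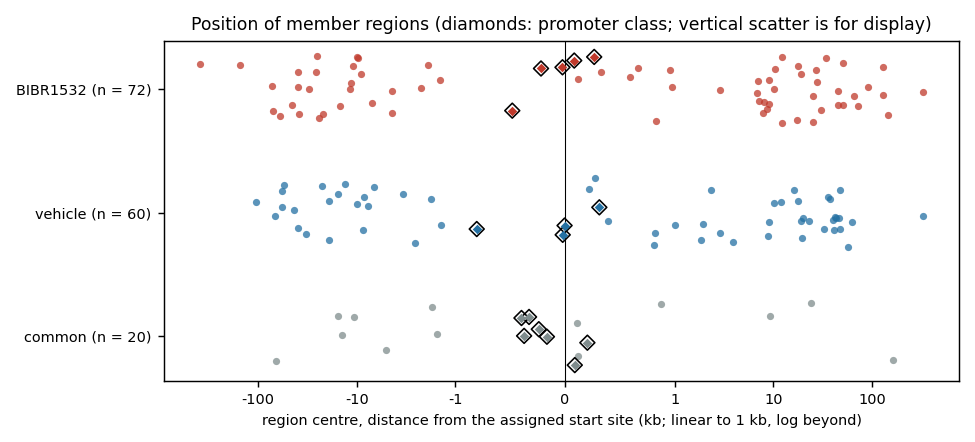
Distance of the centre of each member region from its assigned start site, in kb in the gene's direction (linear to 1 kb, log scale beyond), for 72 BIBR1532, 60 vehicle and 20 common regions. Diamonds are promoter-class regions, 5 BIBR1532, 4 vehicle and 7 common, and 10 of the 20 common regions lie within 1 kb of a start site, against 12 of 72 BIBR1532 and 9 of 60 vehicle regions.

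The condition-specific regions answer how the inhibitor and the vehicle pools differed at these genes. They lay mostly away from promoters, in introns (35 of 72 BIBR1532 and 28 of 60 vehicle regions) and between genes (27 and 21). Promoter regions were 5 of 72 BIBR1532 regions (6.94%), against 10.6% of all BIBR1532 regions, and 4 of 60 vehicle regions (6.67%), against 9.76% of all vehicle regions. With all condition-specific regions centred up to 5 kb from a start site counted instead, the members' share was 28% and that over the series 24.8%, so the direction depends on the limit. Distances beyond 100 kb were held by 8 of 132 (6.06%, interval 2.65 to 11.6), against 21.5% of all condition-specific regions and 60 of 427 (14.1%) nearest to other Slc genes. Repeats were named in 34 of 132 (25.8%), against 25.3% over all.

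Among the 132 condition-specific member regions, 72 were BIBR1532 regions (54.5%, exact interval 45.7 to 63.2), against 46.5% over the series and 196 of 427 (45.9%) at other Slc genes. The interval includes the share over the series. Among member regions with a score under 3, 14 were BIBR1532 and 5 vehicle regions (73.7%), against 58.3% over all regions. At a score of at least 3 there were 58 and 55 (51.3%, interval 41.7 to 60.8), against 44.9%. The low scores thus held more BIBR1532 than vehicle regions among members and over the whole series.

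Many of these regions sat at a single score. In the BIBR1532 list 32 of 72 member regions had the score 6.34, the most frequent of that list, as did 46.8% of all its regions. In the vehicle list 28 of 60 had the score 5.19, as did 50.1% of all. Without them the members' BIBR1532 share was 55.6%. Median widths were 236 bp for BIBR1532 and 246 bp for vehicle member regions.

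Counted over genes, 42 of 81 (51.9%, interval 40.5 to 63.1) were named by a BIBR1532 region, against 34.5% of protein-coding genes, and 35 (43.2%, interval 32.2 to 54.7) by a vehicle region, against 37.4%. The members are longer than most genes, with a median span of 34740 bp against 17146 bp over all protein-coding genes. Across genes, the Spearman correlation of gene span with the number of condition-specific regions was 0.365 over the 81 members and 0.430 over 21900 genes. This describes genes that share pools and a nearest-start-site assignment. BIBR1532 promoter regions were found at 4 of 81 genes, against 6.89% of all, and vehicle promoter regions at 4 of 81, against 7.37%.

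**Figure D2:**
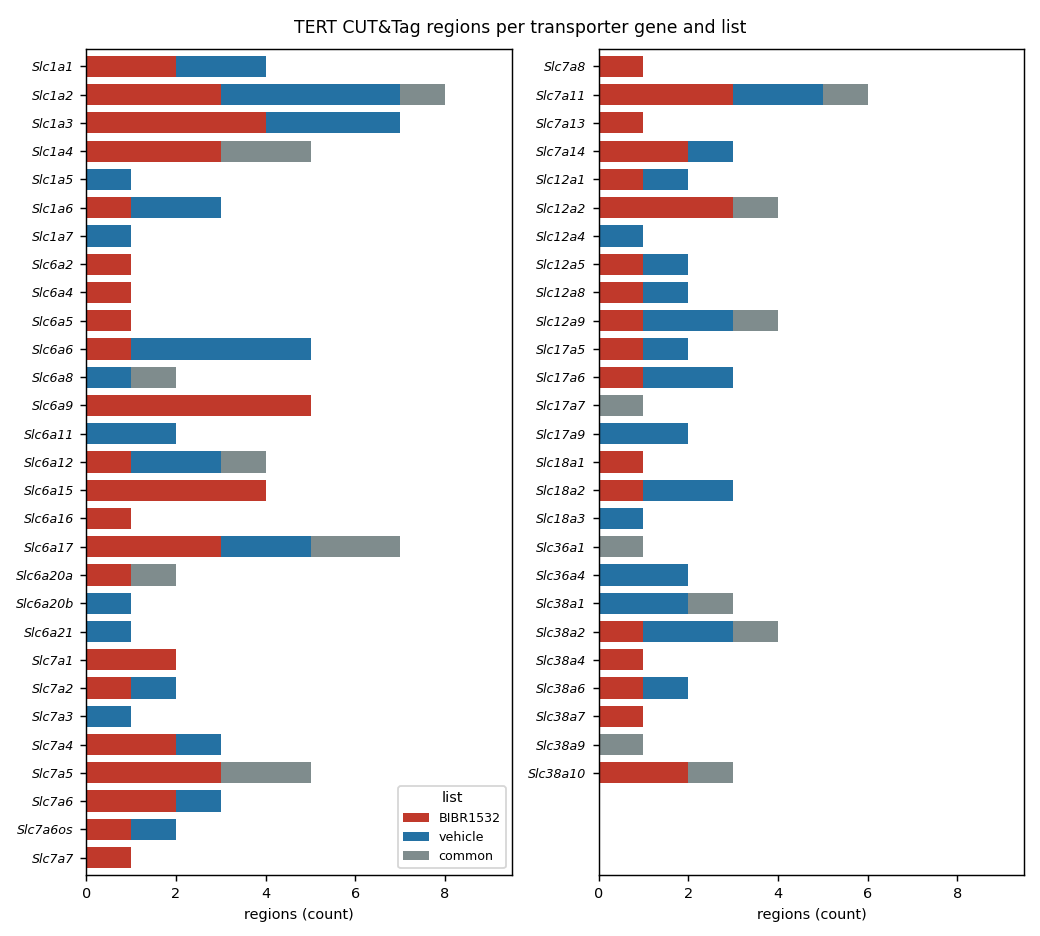
Number of regions nearest to 55 of the 57 named genes, stacked by list (x axis, count of regions). Slc1a2 has 3 BIBR1532, 4 vehicle and 1 common region, and Slc6a9 and Slc6a15 have BIBR1532 regions only.

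The glutamate carriers of the plasma membrane had 10 BIBR1532 and 12 vehicle regions, and each of the 5 genes was named. Slc1a2, which encodes the main astrocytic carrier, was assigned 3 BIBR1532 and 4 vehicle regions besides 1 common region. The highest score of any member in the BIBR1532 list, 14.9, was found here, at 102714277 to 102714665 on chromosome 2 (intron 1 of 10 of an alternative transcript). A vehicle region of 158 bp lay at 102659425 to 102659582, 814 bp after a start site of the gene. The shared region lay between them, in intron 1 of 9, so the long first intron of this gene held regions of all 3 lists.

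Slc1a3, the gene of the carrier GLAST, had 4 BIBR1532 and 3 vehicle regions, and 1 region of each kind lay in the gene. Slc1a1, the gene of the neuronal carrier EAAC1, had 2 and 2, none within 10 kb of its start site. Slc1a6 had 1 and 2, among them a vehicle region of 522 bp at score 8.46 in intron 1 of 9. The highest vehicle score among members, 15.6, belonged to an intergenic region 8567 bp before Slc1a5, which encodes the glutamine carrier ASCT2, at 16772667 to 16772892 on chromosome 7.

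Among GABA carriers of the plasma membrane, Slc6a11, the gene of the glial carrier GAT3, was assigned 0 BIBR1532 and 2 vehicle regions by nearest start site. These vehicle regions lay in intron 3 of 13, 755 bp wide at the list's most frequent score, and in intron 5 of 13, with a score of 6.77. The span of Slc6a11 also held regions of all 3 lists that were assigned to another gene, so its signal was not of the vehicle list only. Slc6a12, the gene of the betaine and GABA carrier, had 1 BIBR1532, 2 vehicle and 1 common region. The regions of Slc6a12 lie partly in Slc6a13 and partly in Iqsec3, and none lay in Slc6a12 itself. Those in Iqsec3 were a BIBR1532 region with a score of 10.5 and the widest vehicle region of the set, 866 bp.

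Monoamine and glycine carriers had 8 BIBR1532 regions and 0 vehicle regions, a share of 100% (exact interval 63.1 to 100), against 46.5% over the series. The serotonin carrier gene Slc6a4, the noradrenaline carrier gene Slc6a2 and Slc6a5, which encodes the neuronal glycine carrier, had 1 BIBR1532 region each, that of Slc6a5 with a score of 9.04, and the dopamine carrier gene Slc6a3 had no region. The other 5 belonged to a single gene, Slc6a9, so the 8 are not independent and the interval is too narrow. The regions of Slc6a2 and Slc6a5 did not lie in those genes, while that of Slc6a4 lay in its gene.

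Slc6a9, which encodes the glycine carrier GlyT1, had 5 BIBR1532 and 0 vehicle or common regions. A promoter region of 219 bp at 117835477 to 117835695 on chromosome 4 spanned a start site, and 2 regions in the CpG island of intron 1 followed, centred 594 and 957 bp after it. These 3 regions have scores of 1.45, 1.84 and 1.45, among the lowest of the list, and they are no longer counted at a score of at least 2. A second promoter region, 125 bp wide, lay before an internal start site at 117855003 to 117855127 with a score of 6.34, and the fifth region was intergenic, 21843 bp upstream.

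Slc6a15, the gene of a neuronal carrier of branched-chain amino acids and proline, had 4 BIBR1532 and 0 vehicle regions. Its promoter region at 103367789 to 103367993 on chromosome 10 scored 1.62 and an intron 1 region centred at 829 bp scored 1.75, and the other 2 were intergenic at 91273 and 329190 bp from the start site. Slc6a17 had 3 BIBR1532, 2 vehicle and 2 common regions. Its 3 BIBR1532 regions all scored under 2, and its vehicle region of 247 bp in the 5' UTR, 387 bp after a start site, scored 7.03. Slc6a6, the taurine carrier gene, had 1 BIBR1532 and 4 vehicle regions, and the vehicle region in its 5' UTR, 406 bp wide and centred 221 bp after the start site, scored 3.29. Its highest scores were 11.6 for the BIBR1532 region and 12.2 for a vehicle region, 39140 and 66924 bp upstream.

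Genes of the Slc17, Slc18 and Slc32 families that fill synaptic vesicles had 3 BIBR1532 and 7 vehicle regions (30.0%, interval 6.67 to 65.2). The interval includes the 46.5% over the series. Slc6a17 was not counted in this role. Slc17a6, the gene of VGLUT2, had 1 and 2, the wider vehicle region being 816 bp in intron 8 of 11. Slc18a2, the gene of the vesicular monoamine carrier, had 1 and 2, and its vehicle region in intron 3 of 15, on a CA repeat, scored 9.43. The vesicular nucleotide carrier gene Slc17a9 had 2 vehicle regions, and that at 180724430 to 180724636 on chromosome 2, of the promoter class with its centre 806 bp before a start site, scored 9.60. Slc17a7 had the common region named above and no other. The vehicle region of Slc18a3, the vesicular acetylcholine carrier gene, lay 18819 bp away in an intron of Chat. Slc17a8 and Slc32a1, the gene of the vesicular GABA carrier, were named by no region.

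Cation-chloride cotransporter genes had 8 BIBR1532 and 6 vehicle regions. Slc12a2 had 3 BIBR1532 and 0 vehicle regions. The first lay in a B1 element 7055 bp before the start site and the second in intron 1 of 26, while the third was 144420 bp away, inside Fbn2. Slc12a5 had 1 BIBR1532 region in intron 18 of 25, on a GA repeat, and 1 vehicle region in intron 6 of 25, each with its list's most frequent score. At Slc12a9 a BIBR1532 region of 130 bp, centred 330 bp after the start site, lay 329 bp from the common promoter region. The 2 vehicle regions of Slc12a9 lay 1406 and 1749 bp before another start site of the gene, with scores of 3.05 and 1.73.

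**Figure D3:**
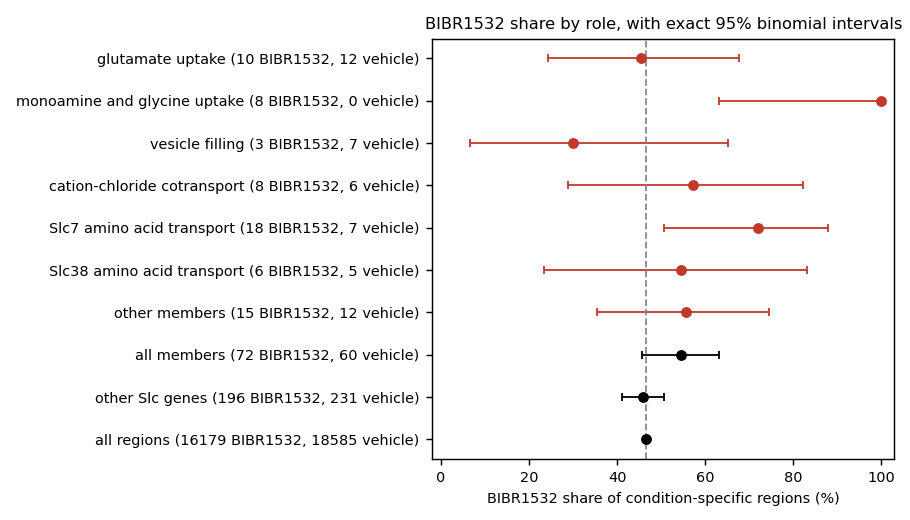
BIBR1532 share of the condition-specific regions (x axis, percent) by role of the carrier, with exact 95% binomial intervals for counting error, and a dashed line at the 46.5% over the series. Most intervals cross the line, while that of monoamine and glycine uptake (8 BIBR1532, 0 vehicle, with 5 of the 8 at Slc6a9) and that of Slc7 amino acid transport (18 and 7) lie above it, and vesicle filling (3 and 7) has the lowest share drawn (GABA uptake and the 2 vehicle regions of Slc36 are not drawn). The intervals treat regions of the same gene as independent, which they are not.

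Slc7 genes other than Slc7a6os had 18 BIBR1532 and 7 vehicle regions. The BIBR1532 share was thus 72% (interval 50.6 to 87.9), the highest of the families with more than 10 condition-specific regions. With Slc7a6os it was 19 of 27 (70.4%), and counting scores from 3 upward it was 17 of 25 (68%). Without repeats the share with Slc7a6os was 65% (interval 40.8 to 84.6) and within 10 kb of a start site 64.3% (interval 35.1 to 87.2), and both intervals include the share over the series under the same setting, 46.6% and 49.3%. With 9 families and overlapping roles compared and no replicate, these shares are a description of the lists. Slc7a5 (LAT1) had 3 BIBR1532 and 0 vehicle regions, all in its introns, of which the region at 121898862 to 121899213 on chromosome 8 scored 4.42. Slc7a1, which encodes the cationic amino acid carrier CAT1, had 2 and 0, and its promoter region of 136 bp, centred 220 bp before the start site, scored 2.06 and is the one marked in the sequence above. Slc7a11, the cystine and glutamate exchanger xCT, had 3 BIBR1532, 2 vehicle and 1 common region, of which the BIBR1532 regions lay 24035 to 383966 bp upstream of the assigned start site and 1 vehicle region overlapped exon 8 of 12. Of these BIBR1532 regions, 1 lay within the span of the gene. The widest member region of any list, 1151 bp, was an intergenic BIBR1532 region 51170 bp from Slc7a13, with a score of 8.95.

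At 2 of the Slc7 genes the lists met near a start site. Slc7a6 had a BIBR1532 region in an LTR element 1424 bp upstream (score 8.95) and another 668 bp downstream in intron 1 (score 5.95). Between them lay a vehicle promoter region of 374 bp at 106168730 to 106169103 on chromosome 8 (score 6.91), marked in the sequence above. At Slc7a4 a BIBR1532 region over exon 1 (score 6.53) lay 551 bp from a vehicle region in exon 2 (score 5.19). Signal was therefore placed in both directions within 3 kb of each start site. Slc7a6os had a BIBR1532 region that lies in Slc7a6 and a vehicle promoter region (score 4.03).

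Slc38 genes had 6 BIBR1532 and 5 vehicle regions. Slc38a10 had 2 BIBR1532 and 0 vehicle regions, and that in intron 1, 643 bp wide with a score of 4.15, lay 356 bp from the common promoter region. Slc38a6 had a BIBR1532 promoter region (242 bp, centred 265 bp after the start site, score 3.36) and a vehicle region at 1915 bp. Slc38a1 had 0 and 2, Slc38a2 1 and 2, and none of these 5 lay within 5 kb of a start site. Among lysosomal carriers, Slc17a5, which encodes the sialic acid carrier sialin, had a BIBR1532 region in its 3' UTR and a vehicle region of 374 bp over its start site (score 5.51, marked in the sequence above), and Slc36a4 had 2 vehicle regions.

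**Figure D4:**
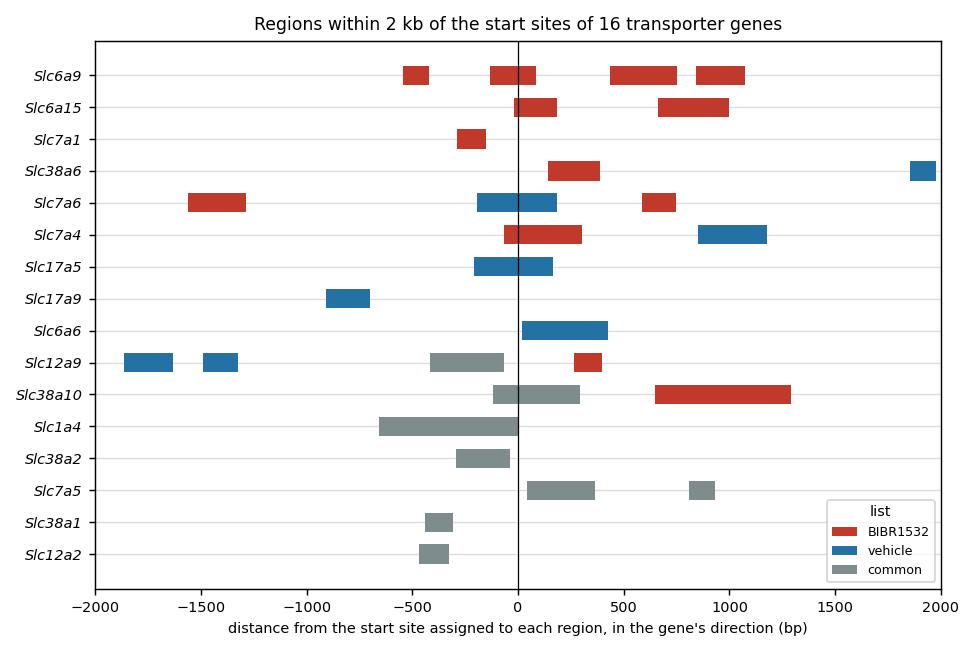
Extent of regions within 2 kb of the start site assigned to each region (x axis, bp in the gene's direction) for the transporter genes with a promoter-class region and for Slc7a4 and Slc6a6, coloured by list. The regions of Slc6a9 are all BIBR1532 regions (that before the start site belongs to a second, internal start site). Slc7a6, Slc7a4, Slc38a6 and Slc12a9 show both condition-specific lists (the vehicle regions of Slc12a9 belong to another start site than its other regions). Slc12a9 and Slc38a10 show a common region beside a BIBR1532 region.

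Common and BIBR1532 regions were neighbours at a few members. Within 1 kb of a BIBR1532 region lay 4 of 20 common member regions (20%), at Slc12a9, Slc38a10, Slc6a17 and Slc6a20a, against 20.3% of all common regions. At Slc6a17 the gap was 7 bp and at Slc6a20a the 2 regions abutted. No common member region, 0 of 20, lay within 1 kb of a vehicle region, which allows a share of up to 15.0%, against 21.0% of all common regions. Of the 60 vehicle member regions 0 lay within 1 kb of a common region, which allows up to 5.00%, against 7.54% of all vehicle regions. The 2 counts of 0 are not separate observations, since a pair of neighbouring member regions would enter both.

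Genes with several regions of a single list were also counted, by a rule chosen after the values were seen. Among the 57 named members, 5 had at least 3 BIBR1532 and 0 vehicle regions (8.77%): Slc12a2, Slc1a4, Slc6a15, Slc6a9 and Slc7a5, against 1.69% of the 12925 protein-coding genes named by any list. The reverse pattern was found at 0 members, against 2.73%. The count of 5 depends on low scores. With a minimum score of 2 or of 3 it was 1, Slc12a2, and by gene span it was 2, Slc6a9 and Slc7a5.

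Genes that act with these carriers were taken from lists that are no part of the rule. Of 18 genes of transmitter synthesis and breakdown, 16 were named and 5 had a common promoter region, among them Glud1, Got1, Abat, whose enzyme breaks down GABA, and the monoamine oxidase gene Maoa. Over all protein-coding genes 12925 of 21900 were named and 14.2% had a common promoter region. The list had 21 BIBR1532 and 16 vehicle regions (56.8%, interval 39.5 to 72.9), against 46.5% over the series. Maoa also had 2 BIBR1532 promoter regions, Ache had 1 and Aldh5a1 had a vehicle promoter region. Of the 6 kinases that control chloride cotransporters, Wnk1 and Oxsr1 each had 2 common promoter regions, and the list had 4 BIBR1532 and 9 vehicle regions (30.8%, interval 9.09 to 61.4, which includes the 46.5%).

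Of 10 genes for partner subunits and amino acid sensing, 5 had a common promoter region: Slc3a2, whose protein is the partner of LAT1, the kinase gene Eif2ak4 and the transcription factor gene Atf4 of the amino acid response, Rragc and Lamtor1, against 14.2% of all protein-coding genes. BIBR1532 promoter regions were found at Eif2ak4, Mtor, Rptor and Rraga, against 6.89% of all genes, and vehicle promoter regions at Slc3a2 and Rragc, against 7.37%. The list had 9 BIBR1532 and 8 vehicle regions (52.9%, interval 27.8 to 77.0). The shared promoter signal at LAT1 (Slc7a5) and at its partner Slc3a2 thus stood in the same list, which is a count of regions and not a test of their relation.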

How the data were processed

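The 6 samples, 3 BIBR1532 and 3 vehicle, took their groups from the dose given in each title. Per the file headers, the regions came from a bdgdiff step and were annotated on mm10 with annotatePeaks.pl. MACS2 2.1.2, Bowtie2, Picard and CASAVA 1.8 appear, with no role, in the submitters' processing notes. The value of a region is the score deposited by the authors, used to describe and filter regions within a list, and neither labels nor headers state a scaling of the pools. The BIBR1532 and vehicle lists had been saved with encoded punctuation and were decoded.

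All rows of the 3 lists were used. Members were matched by symbol to RefSeq genes and promoter windows (GRCm38.p6). Counts, shares and exact 95% (Clopper-Pearson) binomial intervals were computed with Python 3.11.15, pandas 2.3.3 and scipy 1.17.1, and figures with matplotlib 3.10.9. The limit given for a count of 0 is 3 counts of the total. With 1 pool per condition, no test was made. The reading and counting steps were tested on simulated rows.

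Members, roles and gene lists were chosen with earlier results of these data known. The genes named are those with a promoter-class region, those with at least 4 condition-specific regions, those with the regions of highest score or width, and 22 fixed by name. Slc6a8, Slc7a4, Slc36a1, Slc36a4, Slc38a9 and, by gene span, Slc6a13, Slc12a4 and Slc38a6 were named after their values were seen. Alternatives were score minimums of 2 and 3, no regions at the most frequent score, widths of at least 500 bp, main chromosomes, merging within 1 kb, distance limits of 10 and 100 kb, promoter limits of 1 and 5 kb, no repeats, only named genes, and leaving out genes. Assignment by gene span and the counts of genes with regions of 1 list were added after seeing the data. Results for some genes are not reported here.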

Additional observations from a re-analysis of the deposited data

How the results depend on the processing

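The BIBR1532 share of the condition-specific member regions (54.5%) lay between 50% and 57.1% in its alternatives, inside its own interval in each. The promoter share of common member regions (35%, against 51.8%) was 100% at a width of at least 500 bp (1 of 1 region, against 68.4%) and 60% with centres within 5 kb (against 77.4%). That of condition-specific member regions (6.82%, against 10.1% over the series) was 0% at a width of at least 500 bp (0 of 20, against 3.97%), 16.4% within 10 kb of a start site (against 30.5%) and 15.9% with centres within 1 kb (against 16.7%). With centres within 5 kb it was 28%, against 24.8%, so its direction against the series turned. The share of genes with a common promoter region (8.64%, against 14.2%) was 1.23% at a width of at least 500 bp, against 3% over all protein-coding genes. Among only the members named by a region it was 12.3% (7 of 57, interval 5.08 to 23.7), against 24.1% of all named protein-coding genes. The count of members with at least 3 BIBR1532 and 0 vehicle regions (5) was 1 at a score of at least 2, 1 at a score of at least 3, 1 within 10 kb, 2 without the most frequent score, 2 by gene span, 3 without repeats and 0 at a width of at least 500 bp. The 2 without the most frequent score were Slc6a9 and Slc7a11, and Slc7a11 is not among the 5. These settings leave fewer regions. For single families, 7 of 86 values left the interval of the family, each from at most 5 regions. No paired analysis was possible because the lists join the 3 samples of each condition, and for the same reason no sample could be left out. The scores come from pools of unknown depth.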

Other observations

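Counting by gene span in place of the nearest start site changed which carriers held regions. Slc32a1, the vesicular GABA carrier gene that was named by no region, held 1 vehicle region that had been assigned to Gm14204. Slc6a13, the GABA carrier gene GAT2, held 1 vehicle and 1 common region assigned to Slc6a12. Slc12a4, the gene of the chloride exporter KCC1, held 2 BIBR1532, 1 vehicle and 1 common region, where the nearest start site gave it 1 vehicle region, because the others were assigned to Lcat and Mir7074. Slc38a6 held 3 BIBR1532 and 1 vehicle region, against 1 and 1. In all, 102 regions had their centre in the span of a member gene, 49 BIBR1532 and 39 vehicle regions among them (55.7%). Of the 152 regions assigned by start site, 80 lay in the gene they were assigned to, 16 in another protein-coding gene and 56 between genes.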
